A study of Mus musculus with 8 samples.

Results

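The let-7 precursors that lie outside the clusters shared with mir-99, mir-100 and mir-125 precursors were examined in myoblasts of old and young mice. These are let-7a-1, let-7f-1 and let-7d of a locus on chromosome 13, let-7c-2 and let-7b on chromosome 15, let-7f-2 and mir-98 on chromosome X, let-7g on chromosome 9 and let-7i on chromosome 10. They were chosen by precursor name (mmu-let-7a-1, mmu-let-7f-1, mmu-let-7d, mmu-let-7c-2, mmu-let-7b, mmu-let-7f-2, mmu-mir-98, mmu-let-7g and mmu-let-7i), and all 9 were found among the 1181 miRNA precursors in the table. Small RNA was sequenced from myoblasts, the dividing precursors of muscle fibres, of old and young C57BL/6J mice, with 4 libraries per age class. The labels number the libraries (old 1 to old 4, young 1 to young 4), and each library is read here as 1 mouse. The mice differed by age class only in the labels, no allele, transgene or treatment is named, and the sources used here do not give the ages, the muscles used or the way the cells were isolated.

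let-7 is a deeply conserved miRNA family that was first found as a timing gene in the worm Caenorhabditis elegans, and that accumulates in many animal tissues as cells leave the proliferating state. Its members share a seed, the bases that pair with target mRNAs, and repress growth-promoting genes such as Hmga2, Igf2bp family members and Lin28. LIN28 proteins in turn bind the loop of many let-7 precursors and block their maturation, so that precursor transcription and the level of the mature miRNA can come apart. In muscle, Hmga2 and Igf2bp2 are known to act in the proliferation of myoblasts.

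The mature 5p forms of the 9 precursors are shown because the results turn on which of them share reads and which differ by single bases. They are written 5′ to 3′ from RefSeq (GRCm38.p6), with the seed (bases 2 to 8) in capitals:
let-7a (let-7a-1): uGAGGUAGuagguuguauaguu
let-7c (let-7c-2): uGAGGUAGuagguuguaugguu
let-7b (let-7b): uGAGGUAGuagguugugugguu
let-7d (let-7d): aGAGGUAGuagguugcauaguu
let-7f (let-7f-1 and let-7f-2): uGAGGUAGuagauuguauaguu
miR-98 (mir-98): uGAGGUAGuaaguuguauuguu
let-7g (let-7g): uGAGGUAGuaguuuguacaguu
let-7i (let-7i): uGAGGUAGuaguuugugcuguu
All 9 precursors carry the same seed. Positions are counted from 1 at the 5′ end and changes are given relative to let-7a. let-7c differs by A19G, let-7b by A17G and A19G, and let-7d by U1A and U16C. The other forms are changed at position 11 or 12: let-7f by G12A, miR-98 by G11A and A19U, let-7g by G12U and U18C, and let-7i by G12U, A17G, U18C and A19U. The 3p forms of let-7a-1 and let-7c-2 are identical in RefSeq, although their 5p forms are not.

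The loci differ in their setting. let-7a-1 (chr13:48538179-48538272, minus strand, mm10), let-7f-1 (chr13:48537829-48537917) and let-7d (chr13:48536012-48536114) lie in an exon of the long non-coding RNA 6720427I07Rik on the same strand. let-7c-2 (chr15:85706603-85706697, plus strand) and let-7b (chr15:85707319-85707403) start 716 bases apart in exons of the non-coding transcript Lncppara. let-7f-2 (chrX:151912346-151912428, plus strand) and mir-98 (chrX:151913214-151913321) lie in an intron of Huwe1, which encodes a ubiquitin ligase. let-7g (chr9:106178840-106178927, plus strand) lies in an intron of Wdr82, whose product is a subunit of histone methyltransferase complexes, and let-7i (chr10:122985640-122985724, minus strand) overlaps an exon of D630033A02Rik, annotated as a transcribed pseudogene. The letters GGAG, which the zinc knuckles of LIN28 are known to bind, were found between the mature arms in 6 of the 9 hairpins, on the RNA strand only, against 8.07% of the 644 mouse hairpins with both arms in the RefSeq sequences used. let-7c-2, let-7b and mir-98 did not hold these letters in that window.

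The deposited values are log2 abundances with a floor at 0, and their steps behave like RPKM (reads divided by precursor length and by library depth). Read that way, the libraries held 25.1 to 27.9 M reads in old and 29.9 to 39.5 M reads in young mice, so that depth and age class cannot be told apart. Of the muscle marker precursors 7 of 10 were above the filter described below, with a summed level of 21.11 to 21.76 in old and 20.33 to 22.14 in young libraries (log2 of the summed linear values plus 1), mir-486 included. Blood markers summed to 3.21 to 4.53 in old and 2.30 to 4.39 in young libraries, with mir-144, mir-142 and mir-223 at 0 in every library. Fibroblast and smooth muscle markers summed to 15.39 to 15.87 in old and 14.62 to 15.68 in young libraries, endothelial ones to 4.48 to 5.55 in old and 4.21 to 6.30 in young libraries, and epithelial ones to 4.96 to 8.05 in old and 5.91 to 7.45 in young libraries; their part in the let-7 values was not tested. All the cells of a library were sequenced together, so fewer cells of a type and less RNA per cell cannot be told apart.

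Several of the precursors share reads, which sets how far they can be read singly. let-7a-1 and let-7a-2, a copy in the miR-100 cluster with the same 5p form, differed by 0.02 to 0.04 on the log2 scale in the 8 libraries, against 0.03 for the ratio of their lengths. let-7c-2 differed from let-7c-1, its copy beside mir-99a, by -0.02 to 0, against -0.015 from length. The values of these copies are therefore in effect the same reads listed under both names, and the level of let-7a-1 or let-7c-2 alone cannot be read from the file. The let-7f copies were not quite equal: let-7f-2 was above let-7f-1 by 0.16 to 0.23, against 0.10 from length, so that its row held 4.196% to 9.38% more reads in every library. This excess was larger than the rounding of the values, which have 2 decimals. The file has 1 value for both arms of a precursor, so the sequences behind the excess cannot be named.

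By row and per length, let-7b and let-7c-2 had the highest levels of the 9. They were followed by let-7d, let-7i and let-7a-1, then by let-7f-2, let-7f-1 and let-7g, with mir-98 far below. The rows of let-7c-2, let-7a-1, let-7f-1 and let-7f-2 hold shared reads, so their places are not those of single precursors. Levels per length (deposited log2 scale) averaged 15.41 for let-7b, 14.87 for let-7c-2, 13.88 for let-7d, 13.66 for let-7i, 13.49 for let-7a-1, 11.36 for let-7f-2, 11.16 for let-7f-1, 10.92 for let-7g and 7.83 for mir-98 over the 8 libraries. Neighbours in this order kept it in 8 of 8 libraries except let-7d over let-7i (7 of 8, mean difference 0.22 ± 0.46, SD) and let-7i over let-7a-1 (5 of 8, 0.17 ± 0.51), which did not differ beyond their spread. let-7b ranked between 16 and 25 and mir-98 between 160 and 193 among the 1181 precursors of a library. Recovered reads per library ranged from 498 for mir-98 to 216734 for let-7b, so that counting error alone was 4.48% or less of any value and small beside the spread between libraries. Reads are not independent molecules, and this figure covers counting error only.

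**Figure D1:**
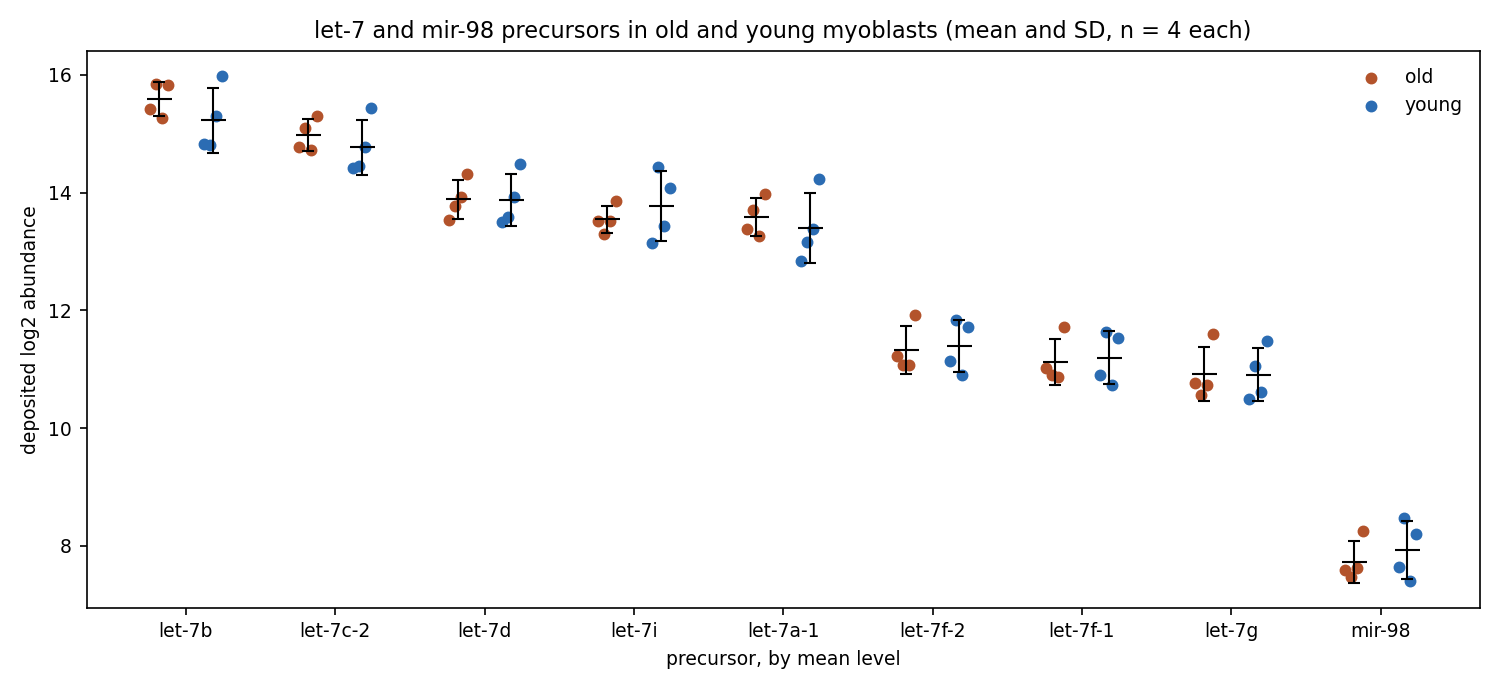
Deposited log2 abundance (y axis) of the 9 precursors, ordered by mean level (x axis), in old (left of each pair) and young (right) libraries. Points are libraries, bars are means ± SD (n = 4 each). The groups overlap for every precursor, and levels run from about 7.83 on average for mir-98 to 15.41 for let-7b.

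No let-7 precursor differed between old and young myoblasts by more than the spread between libraries. Among the 9, all of which passed the filter (4 or more libraries with a linear value of 10 or higher), 0 passed an adjusted p of 0.05 in limma, a linear model fitted across precursors, against 0% of the 359 precursors compared; the adjusted p was 0.995 for each. At an unadjusted p under 0.05 there were 0 of 9, against 1.11% of all. For 0 of 9 were the old and young libraries apart without overlap, against 0.836% of all. Means were higher in old libraries for 5 and lower for 4 of the 9, against 46% higher among all, and the median log2 difference was 0.01, against -0.053 over all precursors. This median of the 9 was not stable: leaving out old 4 gave -0.217, leaving out young 1 gave -0.13 and leaving out young 4 gave 0.20.

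let-7b had the largest difference between old and young among the 9, although it did not pass. Values are given for mice 1 to 4 of each age class in order. let-7b measured 15.42, 15.85, 15.26 and 15.83 across the old mice, against 14.83, 14.81, 15.30 and 15.98 across the young mice. Young 1 and young 2 lay below every old library, whereas young 4 was the highest of all. The mean was 15.59 ± 0.30 across old and 15.23 ± 0.55 across young mice (SD, n = 4 each), so that the log2 difference was 0.36 (SE 0.33, 95% interval -0.39 to 1.11). By limma p was 0.309 and the adjusted p was 0.995, and a two-sided exact permutation test gave p = 0.371. On the linear scale this interval runs from 0.762 to 2.16 times the young level. Its neighbour let-7c-2 measured 14.78, 15.10, 14.73 and 15.30 across the old mice, against 14.42, 14.46, 14.77 and 15.43 across the young mice, with the same young libraries lowest and highest. The log2 difference of let-7c-2 was 0.21 with a 95% interval from -0.49 to 0.91 (limma adjusted p = 0.995). The difference of let-7b was 0.61 without young 4, 0.227 without young 1 and 0.22 without young 2. That of let-7c-2 was 0.43 without young 4, 0.091 without young 1, 0.104 without young 2 and 0.10 without old 4, and none of these passed.

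Among the precursors named for the chromosome 13 locus, let-7a-1 and let-7d had like profiles and let-7f-1 another, although the rows of let-7a-1 and let-7f-1 share reads with copies on other chromosomes. let-7a-1 measured 13.39, 13.70, 13.26 and 13.98 across the old mice, against 12.84, 13.16, 13.38 and 14.23 across the young mice. let-7d measured 13.53, 13.77, 13.93 and 14.31 across the old mice, against 13.51, 13.58, 13.92 and 14.49 across the young mice. Both were highest in young 4 and old 4 and lowest in young 1. let-7f-1, which starts 350 bases from let-7a-1, measured 11.02, 10.91, 10.87 and 11.71 across the old mice, against 10.91, 11.63, 10.73 and 11.53 across the young mice. Unlike the other members of its locus it was high in young 2 as well. The log2 differences between old and young were 0.18 for let-7a-1 (95% interval -0.62 to 0.98), 0.01 for let-7d (-0.71 to 0.73) and -0.073 for let-7f-1 (-0.85 to 0.70), with a limma adjusted p of 0.995 for each.

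The X-linked pair, let-7g and let-7i followed the course of let-7f-1 rather than that of let-7b. For let-7f-2 this follows from the reads it shares with let-7f-1. let-7f-2 measured 11.23, 11.07, 11.08 and 11.92 across the old mice, against 11.14, 11.83, 10.91 and 11.71 across the young mice. mir-98 measured 7.59, 7.47, 7.62 and 8.26 across the old mice, against 7.64, 8.47, 7.40 and 8.20 across the young mice. Both had old 4, young 2 and young 4 as their 3 highest libraries. let-7g measured 10.77, 10.57, 10.74 and 11.60 across the old mice, against 10.49, 11.06, 10.61 and 11.48 across the young mice. let-7i measured 13.52, 13.30, 13.52 and 13.85 across the old mice, against 13.14, 14.44, 13.43 and 14.08 across the young mice. The same 3 libraries led for these precursors, with old 4 highest for let-7g and young 2 highest for let-7i. The log2 differences between old and young were -0.073 for let-7f-2 (95% interval -0.85 to 0.70), -0.19 for mir-98 (-1.06 to 0.68), 0.01 for let-7g (-0.80 to 0.82) and -0.225 for let-7i (-0.995 to 0.55), with a limma adjusted p of 0.995 for each. The difference of let-7i was -0.0025 without young 2 and -0.436 without young 1, and that of mir-98 was -0.012 without young 2 and -0.368 without young 3.

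**Figure D2:**
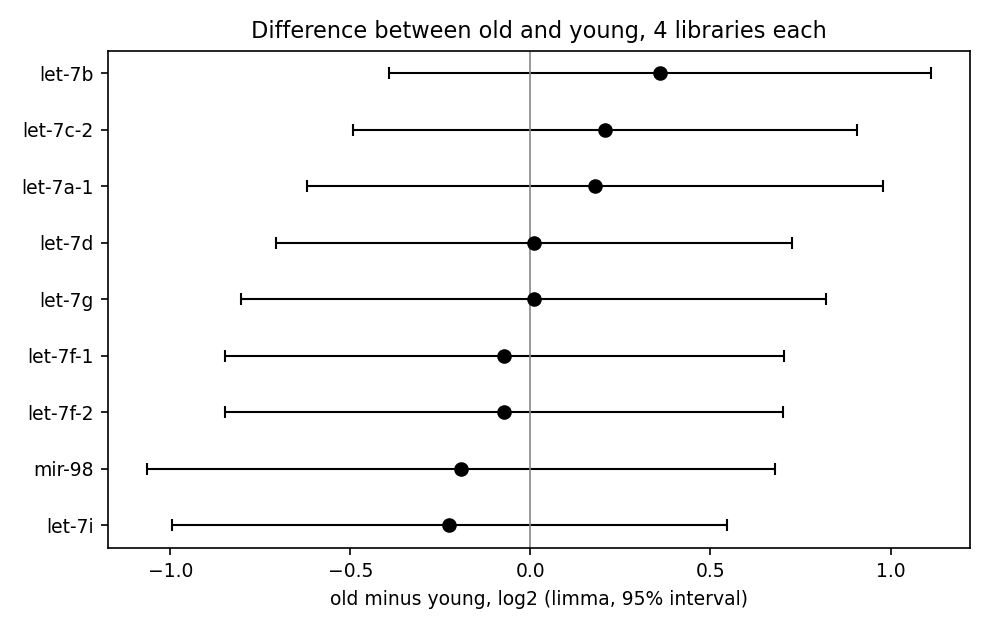
Difference in deposited log2 abundance, old minus young (x axis), of each precursor (y axis), with its 95% interval from limma (4 libraries a group). Estimates run from -0.225 for let-7i to 0.36 for let-7b, and every interval includes 0.

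The lack of a call does not show that the levels were equal. The SE was 0.31 to 0.39 for the 9 precursors, against a median of 0.50 over the 359, and the 95% intervals reached from -1.06 for mir-98 to 1.11 for let-7b. These ends belong to different precursors: the upper end was 0.68 for mir-98 and the lower end was -0.39 for let-7b.

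The 9 precursors shared part of their variation from library to library, within both age classes. All 9 were above their own mean in old 4, by 0.19 to 0.69, and in young 4, by 0.35 to 0.74, and all 9 were below it in young 1, at -0.65 to -0.19. Of the other cell types, the endothelial, blood and epithelial marker sums were also highest in old 4 and young 4 within their age class. Few of the rows behind some sums passed the filter: 2 of 2 endothelial, 1 of 5 blood, 1 of 6 epithelial, 0 of 3 neural and 0 of 1 hepatocyte, against 6 of 7 for fibroblast and smooth muscle. The blood, epithelial, neural and hepatocyte sums thus do not stand for whole marker lists. The endothelial sum was 5.55 in old 4 and 6.30 in young 4, the blood sum 4.53 and 4.39, and the epithelial sum 8.05 and 7.45. The fibroblast and smooth muscle sum peaked elsewhere. It was 15.65 in old 4 against 15.87 in old 1, and 15.52 in young 4 against 15.68 in young 2. Neural markers were lowest in old 4 and young 4, at 1.41 and 0. The hepatocyte marker was at 0 in old 4 and 2.76 in young 4. The muscle sum, which includes mir-486, was lowest of all in young 4, at 20.33. The rows of mir-486 and mir-3107 also held their lowest share of all values there, at 32.4%. A muscle sum without mir-486 was not computed, so this value does not describe the other muscle markers. The part of these cells in the let-7 levels was not tested. In young 2 the 9 precursors parted: let-7a-1, let-7d, let-7c-2 and let-7b were at -0.60 to -0.30 relative to their means, while let-7f-1, let-7f-2, mir-98, let-7g and let-7i were at 0.15 to 0.78. In old 2 the parting had the opposite sense, with the first 4 at -0.11 to 0.44 and the other 5 at -0.36 to -0.25. The 4 precursors that keep the bases of let-7a at positions 11 and 12 thus ran together. So did the 5 that are changed at one of these positions, among which let-7f-1 and let-7f-2 have the same 5p form and share reads. This grouping was made after the values were seen and was not tested.

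**Figure D3:**
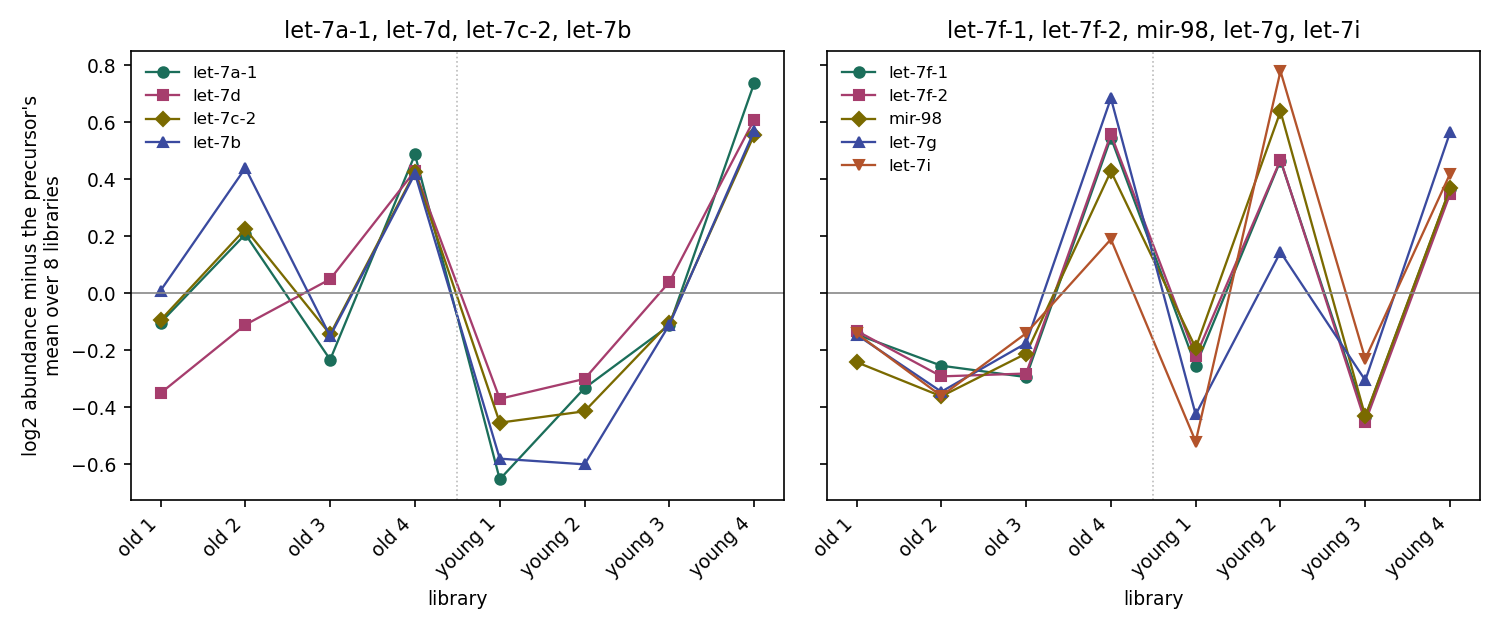
Log2 abundance of each precursor minus its own mean over the 8 libraries (y axis) by library (x axis; lines join the points of 1 precursor). Left, let-7a-1, let-7d, let-7c-2 and let-7b; right, let-7f-1, let-7f-2, mir-98, let-7g and let-7i. In young 2 the left panel lies at -0.60 to -0.30 and the right panel at 0.15 to 0.78.

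Correlations over the 8 libraries describe the same parting. Pearson's r was 0.75 to 0.98 among let-7a-1, let-7d, let-7c-2 and let-7b, and 0.73 to 0.998 among let-7f-1, let-7f-2, mir-98, let-7g and let-7i. Between these groups it ranged from 0.027 to 0.76, with a median of 0.37. let-7g was the closest to both, with r of 0.74 to let-7a-1 and 0.90 to let-7f-1. Of the 5 pairs within a locus, let-7c-2 and let-7b had r of 0.97, let-7f-2 and mir-98 had 0.97 and let-7a-1 and let-7d had 0.87 (Spearman's rho 0.95, 0.90 and 0.71). The other pairs of the chromosome 13 locus were lower, with r of 0.50 for let-7f-1 and let-7a-1 and 0.46 for let-7f-1 and let-7d (rho 0.37 and 0.18). Since the rows of let-7f-1 and let-7a-1 hold reads of copies at other loci, these values do not show how the locus itself varied. let-7f-1 had r of 0.90 to let-7g and 0.85 to let-7i. Its r of 0.97 to mir-98 cannot be told apart from that of let-7f-2, the neighbour of mir-98, with which it shares reads. mir-98 also had r of 0.90 to let-7i and 0.82 to let-7g, which lie at other loci. let-7a-1 had r of 0.98 to let-7c-2 on chromosome 15 and 0.94 to let-7b. The r of 0.998 between let-7f-1 and let-7f-2 comes from shared reads and is no likeness of its own. All these values share the libraries, their scaling and 8 points, and whether reads with a mismatch were listed under a near-identical form is not known from the sources used here.

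**Figure D4:**
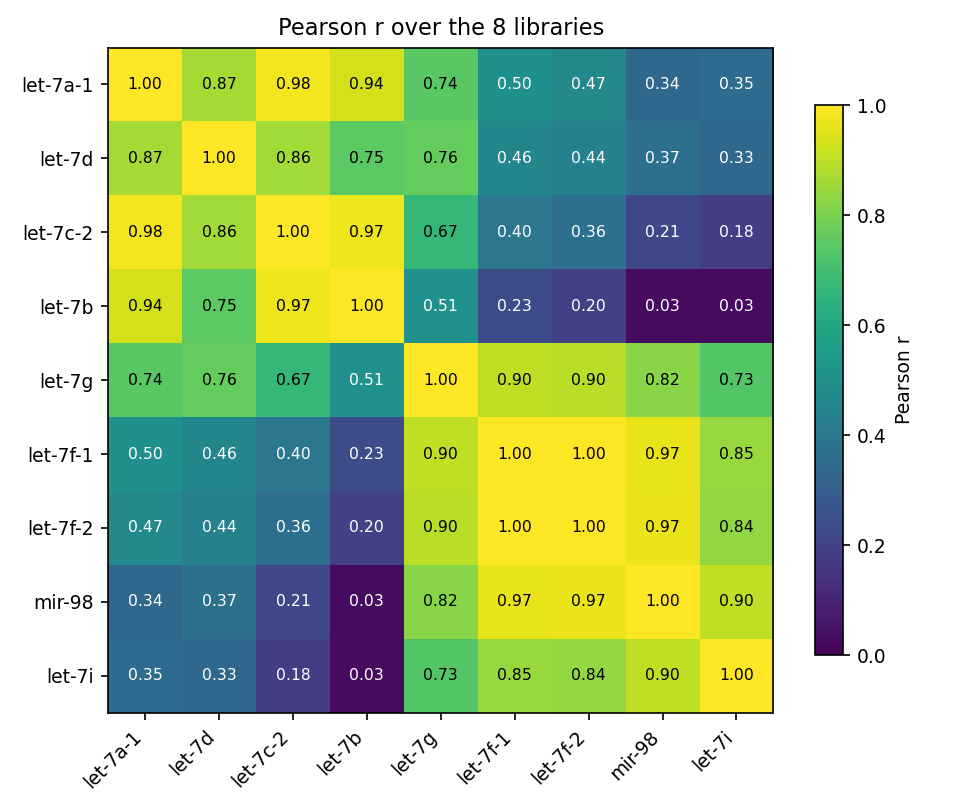
Pearson's r between the log2 abundances of the 9 precursors (rows and columns) over the 8 libraries, from dark (0) to bright (1). A block of high values joins let-7a-1, let-7d, let-7c-2 and let-7b, another joins the other 5, and values between the blocks are 0.027 to 0.76.

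The parting depended on the libraries and on scaling in part. Without young 2 the correlations between the 2 groups of precursors had a median of 0.75 (0.56 to 0.89), against 0.37 with it, so that the low values rest in large part on young 2. Without old 2 the median was 0.44, without old 4 it was 0.22, without young 1 it was 0.31 and without young 4 it was 0.19. Without both old 4 and young 4 it was -0.40 (-0.64 to -0.027). After median-ratio rescaling, which sets the median precursor of each library equal, it was -0.51 (-0.82 to 0.064), while the correlations within the groups had medians of 0.77 and 0.69. Old 4 and young 4 were scaled down by 0.34 and 0.56 in this step, the largest factors of their age class, and the precursors then lay at -0.15 to 0.34 in old 4 and at -0.21 to 0.18 in young 4. The median of all precursors was thus also higher in these libraries before rescaling. In young 2 the rescaled values were -0.67 to -0.37 for the first 4 and 0.079 to 0.71 for the other 5. The lowest r within the first and the second group was 0.53 and 0.31 after median-ratio rescaling, and 0.39 and 0.32 after quantile normalization. With values scaled to the sum of all precursors other than mir-486 and mir-3107 it was 0.78 and 0.15.

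The levels of neighbours within a locus were also compared inside each library, which a scaling factor per library does not change. let-7a-1 minus let-7f-1 was 2.37, 2.79, 2.39 and 2.27 across the old mice, against 1.93, 1.53, 2.65 and 2.70 across the young mice, with the lowest values in young 1 and young 2. let-7b minus let-7c-2 was 0.64, 0.75, 0.53 and 0.53 across the old mice, against 0.41, 0.35, 0.53 and 0.55 across the young mice. mir-98 minus let-7f-2 was the most even of these differences, at -3.64, -3.60, -3.46 and -3.66 across the old mice, against -3.50, -3.36, -3.51 and -3.51 across the young mice. Of the 4 pairs compared, with let-7d minus let-7f-1 as the other, 0 differed between old and young: the differences of the means were 0.25, 0.15, -0.12 and 0.083 in the order named, and two-sided exact permutation p was 0.400, 0.171, 0.114 and 0.857 (adjusted over the 4 pairs 0.533, 0.343, 0.343 and 0.857). With 4 against 4 libraries the smallest p such a test can give is 0.0286.

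The pool of the 9 precursors had let-7b as its largest part in every library, and young 2 stood apart in its make-up. Rows that share reads enter the sums each with their own value. The shares below are thus shares of rows and not of separate molecules from each locus. let-7b held 38.9%, 43.0%, 35.8% and 36.3% of their summed linear value across the old mice, against 34.3%, 27.6%, 36.4% and 36.4% across the young mice. let-7i held 10.4%, 7.34%, 10.7% and 9.20% across the old mice, against 10.6%, 21.3%, 9.96% and 9.74% across the young mice. Young 2 thus had the lowest share of let-7b and the highest share of let-7i. The 9 precursors together held 0.926%, 1.499%, 0.947% and 1.31% of the summed values of all precursors across the old mice, against 0.564%, 0.999%, 0.868% and 1.84% across the young mice. The rows of mir-486 and mir-3107 made up 69.1%, 57.8%, 62.2% and 54.0% across the old mice, against 72.9%, 48.4%, 66.5% and 32.4% across the young mice. With these rows left out of the sum, the 9 precursors held 2.997%, 3.56%, 2.51% and 2.86% across the old mice, against 2.08%, 1.94%, 2.59% and 2.73% across the young mice. Young 4, which had the highest share of the full sum, then lay within the range of the old libraries, as young 3 did, while young 1 and young 2 lay below it. The part that mir-486 plays in the levels of the let-7 precursors was not tested.

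**Figure D5:**
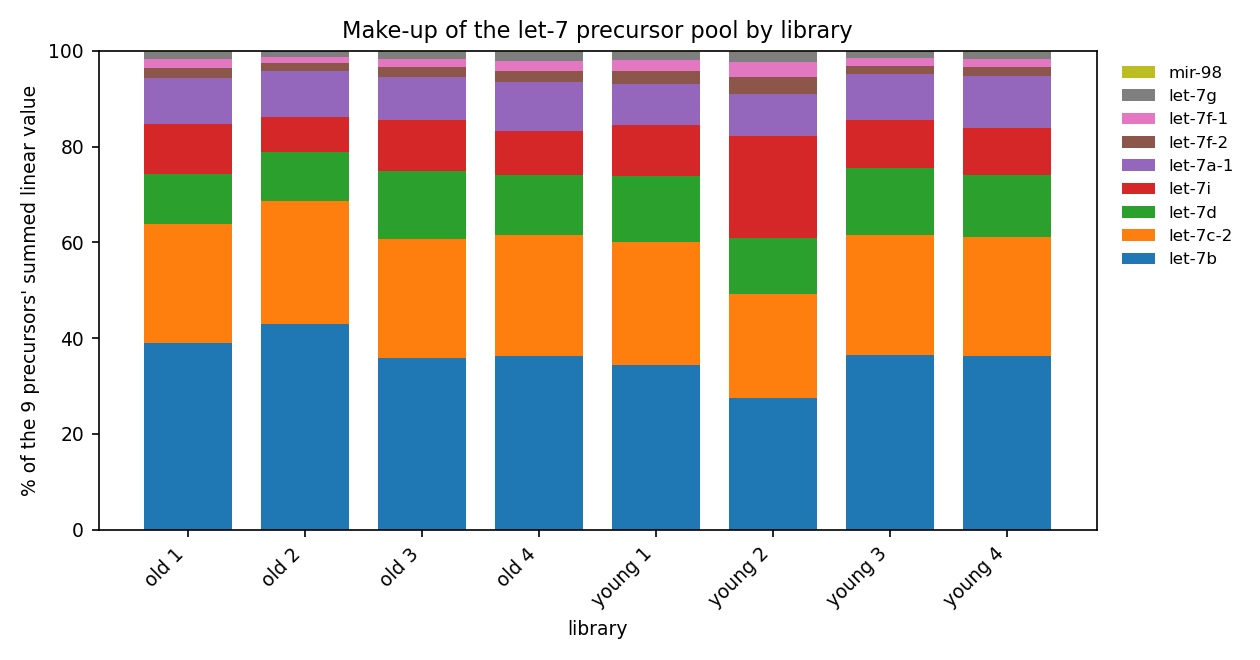
Share of each precursor in the summed linear value of the 9 (y axis, %) by library (x axis). Rows that share reads each count with their own value. let-7b is the largest share in every library, 27.6% in young 2 and 34.3% to 43.0% in the others, and let-7i reaches 21.3% in young 2.

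The other let-7 precursors and their cluster partners did not differ between the age classes beyond their spread either. Of let-7a-2, let-7c-1 and let-7e in those clusters 0 of 3 passed, with log2 differences of 0.18, 0.215 and 0.25 between old and young. let-7a-2 and let-7c-1 share their reads with let-7a-1 and let-7c-2, so of these 3 only let-7e adds a separate comparison. let-7e, which differs from let-7a by U9G and keeps its bases at positions 11 and 12, measured 13.43 ± 0.21 across old and 13.18 ± 0.55 across young mice (SD, n = 4 each) and had r of 0.98 to let-7b. Of the partners mir-99a, mir-99b, mir-100, mir-125a, mir-125b-1 and mir-125b-2 0 of 6 passed, and 4 of 6 had higher means in old libraries. Outside these loci, let-7k and mir-1961 have the let-7 seed in RefSeq. let-7k measured 3.60 ± 0.15 across old and 2.87 ± 1.16 across young mice (limma adjusted p = 0.995), and mir-1961 was listed at 0 in every library. let-7j, whose seed differs by G8U, measured 9.60 ± 0.23 across old and 9.96 ± 0.47 across young mice (limma adjusted p = 0.995), and lay below let-7i by 3.34 to 4.24 with r of 0.78 to it.

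Among 339 compared precursors outside the let-7 family and its clusters, those most like the mean profile of the 9 over the 8 libraries were mir-106b (r = 0.98), a member of the proliferation-linked miR-106b-25 cluster, mir-872 (0.98), mir-361 (0.98), mir-187 (0.98) and mir-29a (0.97), a repressor of collagen genes. The median r of the 339 precursors to that profile was 0.51. These correlations used the deposited values without rescaling. The median of all precursors was itself highest in young 4 and old 4 and lowest in young 1, at 0.56, 0.34 and -0.35 relative to the mean library. A high r can therefore reflect a level shared by most precursors of a library, and likeness after rescaling was not computed. mir-106b measured 10.52, 10.46, 10.64 and 11.47 across the old mice, against 10.03, 10.94, 10.42 and 11.44 across the young mice, with old 4 and young 4 highest and young 1 lowest. Per locus, the most alike were mir-340 and mir-187 for the chromosome 13 locus (0.97 each), mir-214 and mir-669a-9 for let-7c-2 and let-7b (0.94 and 0.92), mir-148a and mir-192 for let-7f-2 and mir-98 (0.91 and 0.90), mir-872 and mir-106b for let-7g (0.98 each), and the copies mir-181a-2 and mir-181a-1 for let-7i (0.97 each). mir-181a-2 was highest in young 2, at 18.96, as let-7i was, and measured 18.14, 17.73, 18.08 and 18.32 in old against 17.85, 17.97 and 18.47 in the other young libraries.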

How the data were processed

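The authors deposited log2 values of miRNA precursors for 8 libraries, with 2 decimals and a floor at 0. BWA and the build mm10 are named in the submitters' processing notes, with no role; the sources used here do not say how reads were trimmed, counted or shared between like precursors. RNA came from a mirVana kit, per the labels' protocols. Library sizes were computed as the number of reads at which low values times precursor length became whole (tolerance 0.1 of a read, up to 12 reads). limma 3.58.1 (R 4.3.3; mean-variance trend) was run on the log2 values as deposited, for the 359 precursors for which 4 or more libraries had a linear value of 10 or higher; differences are old minus young, and p-values were adjusted by Benjamini-Hochberg over all 359, with a threshold of 0.05. Exact permutation tests used all 70 arrangements. The fit was tested on 20 simulated sets in which each precursor varied independently. Variation shared between precursors was thus not covered by that test. Sequences and lengths are from RefSeq (GRCm38.p6, the same build as mm10; 359 of 359 compared precursors matched, 1176 of 1181 in all), with overlapping genes from a GENCODE annotation. Other steps used scipy 1.17.1, pandas 2.3.3 and numpy 2.4.6 in Python 3.11.15, and plots used matplotlib 3.10.9.

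The 9 precursors and the lists were chosen with earlier results of these data known. Precursors were named as the 9 members, the other let-7 precursors and partners, rows with the let-7 seed, and the 5 most alike (2 per locus); let-7j was added after its values were seen. Alternatives were other offsets, rescalings, filters and variance models, averaged copies, the replicate number as a block and left-out libraries.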

Additional observations from a re-analysis of the deposited data

Results flagged for a closer look

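Of 28 groups of 4 libraries examined for a library far from the rest, 1 stood out, where chance flags about 1 in 20: mir-98 minus let-7f-2 in young libraries, whose highest value of -3.36 in young 2 lay apart from -3.51, -3.51 and -3.50 in the others. The gap was 0.93 of the range, above Dixon's 95% critical value for 4 samples.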

How the results depend on the processing

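Old 3 and young 4 were left out together because earlier results of these data singled them out. The count of let-7 precursors that passed was 0 of 9 under all 22 alternatives, and 174 of 198 recomputed differences kept their sign; the lowest adjusted p was 0.343. Over all 359 precursors 0 passed, with 4 at an unadjusted p under 0.05, except without old 3 and young 4 together, where 33 passed, none of them a let-7 precursor of these loci. Reversals were found for 6 of the 9 precursors, let-7a-1 and mir-98 among them. Under quantile normalization let-7f-1 was at 0.016, let-7f-2 at 0.104 and mir-98 at 0.077, and with values scaled to the sum of all other precursors than mir-486 and mir-3107 let-7f-1 and let-7f-2 were at 0.123 and mir-98 at 0.0027. Without old 3 and young 4 let-7f-1 was at 0.123 and let-7f-2 at 0.113, and without old 4 and young 4 let-7g was at -0.027. Leaving out 1 library gave -0.0075 to 0.46 for let-7a-1, -0.13 to 0.215 for let-7d, -0.27 to 0.071 for let-7f-1, -0.27 to 0.072 for let-7f-2, -0.22 to 0.20 for let-7g and -0.16 to 0.25 for let-7d minus let-7f-1. The old minus young difference in the share of summed values was 0.10 percentage points, and 0.65 without mir-486 and mir-3107 in the sum; leaving out 1 library gave -0.065 (without young 1) to 0.361 (without young 4), so that its sign turned. The cause of these changes was not tested.

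With the replicate block the count was 0 of 9 as well. Deviations of old and young libraries with the same number correlated by -0.064, 0.43, 0.66 and 0.58. Old 2, old 3 and old 4 were each closest to the young library of their own number and old 1 to young 4. The numbers were not taken to pair the libraries, since 3 of 4 pairs but not every pair were above 0.1. That rule does not show that libraries of the same number, such as old 4 and young 4, share no variation, which was not tested. The settings for correlations between precursors were chosen after seeing the data. Counting error was 4.48% or less for these precursors, below the spread between libraries.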
